A study of Mus musculus with 4 samples.

Results

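The ferritin genes Fth1 and Ftl1 were examined together with 7 other genes of the iron-responsive element (IRE) system, namely Tfrc, Slc11a2, Slc40a1, Aco1, Ireb2, Alas2 and Hmox1. These 9 genes were found among 20714 gene symbols measured in both assays. The ferritins were chosen by their low ratio of ribosome-protected fragments (RPF) to mRNA in these same libraries, so that ratio is described here without a test. The other 7 were added as carriers of an IRE, as IRE-binding proteins or, for Hmox1, as a heme-degrading enzyme.

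Mouse blastocysts were measured by RNA-seq of polyA RNA (Smart-seq2) and by low-input Ribo-seq, with 2 replicate libraries per assay and 4 in all. The embryos were wild type and untreated, from 4-week-old C57BL/6J females (C57BL/6N in another label) crossed with PWK/PhJ males. All were taken at the 8-cell stage, grown to blastocysts in KSOM medium and freed of the zona pellucida with acidic Tyrode's solution. For Ribo-seq, lysates made with cycloheximide were digested with RNase I and pelleted through sucrose. No iron treatment or mutant was part of the design, so the comparison is between the assays. The labels do not say that replicates came from separate cultures, so p-values measure only the spread between these libraries, which may be technical. In bulk embryos, fewer cells of a type and less RNA per cell cannot be told apart.

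Cells hold iron in ferritin, a shell built of heavy (Fth1) and light (Ftl1) chains. When iron is scarce, the IRE-binding proteins IRP1 and IRP2 bind a hairpin in target mRNAs, the IRE. Binding near the 5′ end blocks translation, as in the ferritins, whereas binding in the 3′ UTR protects the mRNA from decay, as in the transferrin receptor Tfrc.

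The hairpin was searched in annotated transcripts (GENCODE vM1 on NCBIM37, the assembly of mm9) as an unpaired C, 5 stem bases, the loop CAGTGN and 5 stem bases that pair with the first 5 (Watson-Crick or G-U), on the transcript strand. A match with all 5 pairs was found in 5 of the 9 members, at 8 sites. Among all annotated genes it was found in 0.166% of 5′ UTRs (33 of 19854 genes) and 0.623% of 3′ UTRs (124 of 19915). The 5′ UTR matches are shown because the ferritins carry this element ahead of the coding sequence; capitals mark the loop, in the centre of each 30-base window, and bases are written as DNA.
Fth1: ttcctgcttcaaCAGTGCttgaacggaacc
Ftl1: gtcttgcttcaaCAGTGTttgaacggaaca
Slc40a1: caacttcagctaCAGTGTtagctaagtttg
Alas2: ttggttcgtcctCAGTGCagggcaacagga

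The Fth1 window lay at chr19:10057222-10057251 on the plus strand, bases 30 to 59 of an 866-base transcript whose 5′ UTR has 167 bases. The Ftl1 window lay at chr7:52715148-52715177 on the minus strand, bases 78 to 107 of 968, in a 5′ UTR of 253 bases. These 2 windows were identical at 26 of 30 bases, while the Slc40a1 window shared 13 of 30 bases with each ferritin. The Slc40a1 window lay at chr1:45982309-45982338 on the minus strand, in a 5′ UTR of 331 bases. The Alas2 window crossed an exon junction on the plus strand of chromosome X, and its ends lay at 146982001 and 146986693. It shared 14 of 30 bases with Fth1 and 13 of 30 with Ftl1.

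The matches of the uptake genes lay behind the coding sequence and are shown for contrast with the ferritins, again with the loop in capitals.
Tfrc site 1: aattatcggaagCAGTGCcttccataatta
Tfrc site 2: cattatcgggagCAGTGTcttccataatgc
Tfrc site 3: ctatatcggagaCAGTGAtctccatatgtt
Tfrc site 4: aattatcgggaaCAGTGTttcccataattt
Slc11a2: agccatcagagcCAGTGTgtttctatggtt

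The 4 Tfrc sites lay in its 3′ UTR of 2458 bases, on the plus strand of chromosome 16, from chr16:32631305-32631334 to chr16:32631796-32631825. They were identical to each other at 18 to 25 of 30 bases. Slc11a2 matched only when 4 of 5 pairs were enough, a rule met by 6 of the 9 members and by 4.07% of 3′ UTRs. Its site, at chr15:100225583-100225612 on the minus strand, is in the 3′ UTR of 2 annotated transcripts. Aco1, Ireb2 and Hmox1 held no match in their UTRs, which says only that these letters were absent.

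**Figure D1:**
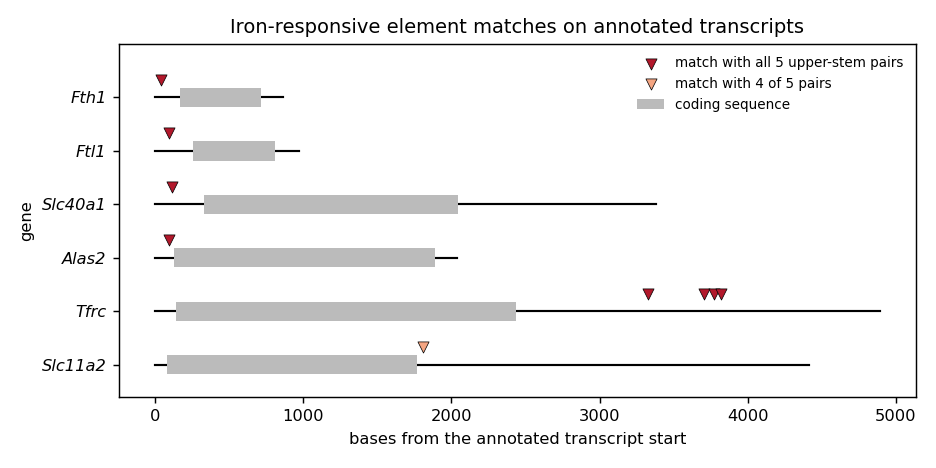
IRE matches on 6 annotated transcripts, drawn to scale in bases from the transcript start, with coding sequences as grey bars and matches as triangles (dark red for all 5 pairs, light for 4 of 5). Fth1, Ftl1, Slc40a1 and Alas2 have 1 match each ahead of the coding sequence, and the 4 Tfrc matches and the Slc11a2 match lie behind it.

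RNA-seq reports the mRNA level of a gene per kilobase of transcript, and Ribo-seq the RPF level per kilobase of coding sequence, both as FPKM computed by the authors with Cufflinks. The steps between low FPKM values implied 5472579 and 5216361 mRNA fragments in RNA-seq replicates 1 and 2, and 533906 and 484477 footprints in Ribo-seq replicates 1 and 2. A coding sequence of 1000 bases thus had a floor of 3 footprints at 7.03 and 7.74 FPKM, which covers counting error only. The 6 trophectoderm and 4 epiblast markers were above 0 in every library, as were 2 of 4 primitive endoderm markers in RNA-seq and 4 of 4 in Ribo-seq. The summed blood markers were at 2.16 and 2.65 FPKM in RNA-seq and at 3.598 and 0 in Ribo-seq, with Hbb-b1, Slc4a1 and Ptprc at 0 throughout. Cumulus and oocyte markers summed to 0 to 1.92 FPKM in each library.

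Fth1, the chain that oxidizes iron as it enters the shell, had mRNA levels of 539 and 480 FPKM and RPF levels of 0 and 41.8 FPKM. Both mRNA libraries were therefore high and close together, whereas the RPF libraries were apart from each other and below both of them. The mean mRNA level, 510 ± 41.7 FPKM (SD, n = 2), ranked at the 99.1 percentile of the 20714 genes, and the mean RPF level, 20.9 ± 29.5 FPKM, at the 77.7 percentile. In footprints, the RPF values stood for 0 and 7.05, and 0 footprints allow a level of up to 16.1 FPKM.

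Ftl1, the chain that helps the iron core form, had mRNA levels of 835 and 766 FPKM and RPF levels of 17.9 and 2.96 FPKM. Here replicate 1 was the higher RPF library, the reverse of Fth1, and again both RPF values lay far below both mRNA values. The mean mRNA level of 800 ± 48.9 FPKM (SD, n = 2) was at the 99.4 percentile, and the mean RPF level of 10.4 ± 10.6 FPKM at the 70.3 percentile. The RPF values stood for 3.36 and 0.504 footprints, against a floor of 3 footprints at 15.98 and 17.61 FPKM.

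RPF minus mRNA was taken on the log2(FPKM + 1) scale, which understates differences of low genes, and was given relative to the median of the 8327 genes with a mean of at least 1 FPKM in both assays. Across these genes the RPF level exceeded the mRNA level by a median of 1.26 before this centring. The difference was -7.55 for Fth1 (SE 1.92) and ran from -10.34 to -4.75 over the pairs of a Ribo-seq with an RNA-seq library. For Ftl1 it was -7.79 (SE 0.83), with pairs from -8.98 to -6.60. Of the 8327 genes, 0 lay lower than Ftl1 and 1 lower than Fth1. These are the values that chose the ferritins and carry no test. Without Ribo-seq replicate 1, the library with 0 Fth1 footprints, the Fth1 difference was -4.92 and the Ftl1 difference -9.01.

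At the median difference of the tested genes, the mRNA level of Fth1 would correspond to an RPF level of 1221 FPKM, or 227 and 206 footprints in Ribo-seq replicates 1 and 2. For Ftl1 it would be 1917 FPKM, or 360 and 326 footprints.

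**Figure D2:**
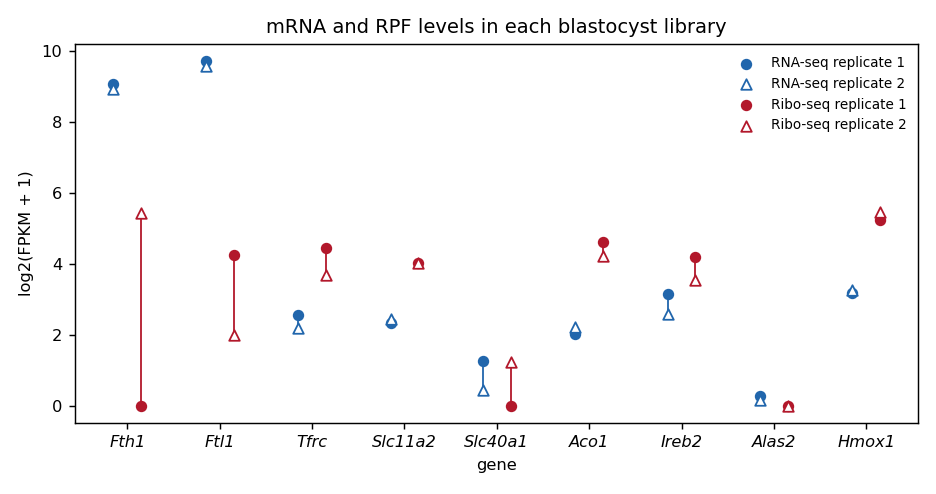
FPKM of the 9 members in each library as log2(FPKM + 1), with RNA-seq in blue and Ribo-seq in red, circles for replicate 1, triangles for replicate 2 and a line joining the replicates. Fth1 and Ftl1 have the 2 highest mRNA levels, and their RPF levels lie below them and spread widely, whereas the RPF of Tfrc, Slc11a2, Aco1, Ireb2 and Hmox1 lies above their mRNA in every library.

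**Figure D3:**
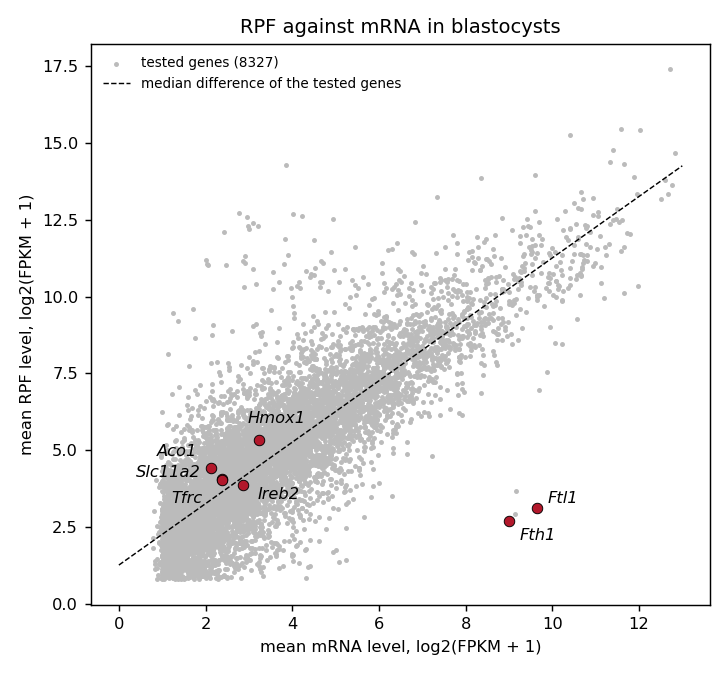
Mean RPF level against mean mRNA level, both as log2(FPKM + 1) over 2 libraries, for 8327 tested genes (grey) and the 7 members among them (red); the dashed line is the median difference of 1.26. Fth1 and Ftl1 lie far below the line at high mRNA, and the other 5 members lie near it.

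Ferritin genes have many processed copies in the mouse genome, and the authors let a read map to up to 20 places. The genome places of every 28-base window, about the length of a footprint, were counted along each coding sequence. For Fth1, 73.6% of 522 windows had 1 place, 26.4% had 2 to 20 and the largest number was 3. For Ftl1, 10.7% of 525 windows had 1 place and 89.3% had 2 to 20, with a median of 5 and a largest number of 14. In both genes 0% of windows passed the limit of 20 places. These counts are of exact matches in the genome. The authors mapped to the transcriptome and allowed mismatches, so the places open to their reads can differ. In the other 7 members 100% of windows had 1 place.

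If a footprint were shared evenly over its places, Fth1 would keep 86.3% and Ftl1 29.5% of its footprints, or -0.21 and -1.76 on the log2 scale. If only windows with 1 place counted, these values would be -0.44 and -3.23. The part of these copies in the ferritin differences was not tested. Copies touch the RNA-seq values too: of 100-base windows of the transcript, 99.0% had 1 place in Fth1 and 39.2% in Ftl1. The read length of the RNA-seq is not given in the sources used here, so its mapping was not tested.

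**Figure D4:**
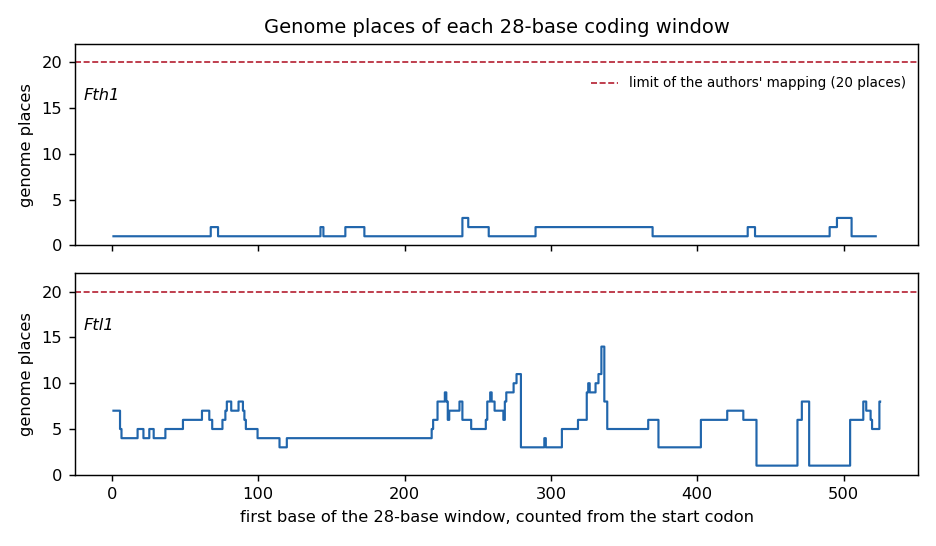
Genome places (exact matches) of each 28-base coding window of Fth1 (top) and Ftl1 (bottom) against the window's first base from the start codon. The dashed red line is the authors' mapping limit of 20 places. Fth1 windows stay at 1 to 3 places, and Ftl1 windows reach 14, all under the limit.

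Genes like both ferritins in mRNA level, or like Ftl1 in copies, were set beside them as a description. Fth1, with 26.4% of its windows at 2 to 20 places, is unlike the genes chosen by copies. The 282 other tested genes with a mean mRNA level of at least 300 FPKM had a median difference of -0.31, and 2 of them lay below -5. The 344 other genes with at least 80% of their windows at 2 to 20 places had a median of 0.33 and a lowest value of -3.80. The 104 genes with both features had a median of -0.38, and the lowest of them was the ribosomal protein gene Rps12 at -2.83.

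The genes nearest to the ferritins in pattern were ranked by the Euclidean distance of log2(FPKM + 1) over the 4 libraries. For Fth1 they were Lars2, Gapdh and Rnf141, at distances of 3.67, 4.63 and 5.10. For Ftl1 they were Gapdh, Lars2 and Pigp, at 1.47, 1.95 and 4.17. Lars2, the mitochondrial leucyl-tRNA synthetase, had 527 and 606 FPKM of mRNA and 5.96 and 7.39 FPKM of RPF, a difference of -7.47, and 100% of its windows had 1 place. The glycolytic enzyme gene Gapdh had 562 and 574 FPKM of mRNA and 15.99 and 8.60 FPKM of RPF, a difference of -6.74. Of its coding windows, 92.4% had more than 20 places. The 8 tested genes with at least 50% of windows over that limit had a median difference of -2.88.

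Among the uptake genes, Tfrc, the receptor that brings in transferrin-bound iron, had mRNA levels of 4.89 and 3.59 FPKM and RPF levels of 20.6 and 11.8 FPKM. Both RPF libraries were above both mRNA libraries, with 22.97 and 11.99 footprints behind them. Its difference was 0.42 relative to the median gene (95% interval -0.62 to 1.45, limma adjusted p = 0.472) and did not pass the test, which asked for an adjusted p under 0.05 and a difference of at least 1.

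Slc11a2 encodes DMT1, which carries ferrous iron across membranes. Its mRNA levels were 4.04 and 4.45 FPKM and its RPF levels 15.1 and 15.3 FPKM. The RPF libraries stood above the mRNA libraries and differed little from each other, at 12.7 and 11.7 footprints. The difference of 0.37 (95% interval -0.29 to 1.02, limma adjusted p = 0.331) did not pass. The deposited values are per gene, so the Slc11a2 transcripts with and without the hairpin match were not separated.

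The exporter Slc40a1 (ferroportin) and Alas2, the erythroid enzyme that starts heme synthesis, share with the ferritins a hairpin match in the 5′ UTR. Slc40a1 mRNA was at 1.39 and 0.366 FPKM and its RPF at 0 and 1.36 FPKM, or 0 and 0.999 footprints. Alas2 mRNA was at 0.210 and 0.111 FPKM and its RPF was 0 in both libraries, which allows up to 3.59 and 3.96 FPKM. Both genes were under the 1 FPKM filter and were not tested. The ferritins were thus the only members with a 5′ UTR match that were expressed well enough for their RPF and mRNA to be compared.

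Of the IRE-binding proteins, Aco1 encodes IRP1, which doubles as the cytosolic aconitase. Its mRNA was at 3.09 and 3.63 FPKM and its RPF at 23.5 and 17.5 FPKM. The RPF libraries lay well above the mRNA libraries, with 31.3 and 21.2 footprints. Its difference of 1.03 (95% interval 0.26 to 1.80) had a limma adjusted p of 0.0865 and did not pass. The difference was 0.74 without Ribo-seq replicate 1 and 1.08 without Ribo-seq replicate 2.

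Ireb2 encodes IRP2, which is degraded when iron is plentiful. Its mRNA was at 7.87 and 4.97 FPKM and its RPF at 17.4 and 10.7 FPKM. Replicate 1 was the higher library in both assays, and the assays did not overlap. The difference of -0.25 (95% interval -1.31 to 0.81, limma adjusted p = 0.675) did not pass, on 25.0 and 14.0 footprints.

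Hmox1, heme oxygenase 1, frees iron from heme. It had mRNA levels of 8.04 and 8.63 FPKM and RPF levels of 36.5 and 43.3 FPKM, the RPF libraries being above the mRNA libraries on 13.03 and 14.03 footprints. Its difference of 0.86 (95% interval 0.17 to 1.56, limma adjusted p = 0.0970) did not pass.

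In all, 7 of the 9 members passed the filter, and 0 of the 5 that are not ferritins passed the test by limma, with 2 (Aco1 and Hmox1) at an unadjusted p under 0.05, a level reached by 2986 of the 8327 tested genes. Over all 8327 genes 1030 passed (12.4%), of which 760 were higher in RPF (9.13%) and 270 lower (3.24%). The assays did not overlap in any of the 5 tested members that are not ferritins, as in 76.7% of tested genes. RPF exceeded mRNA without overlap in all 5, as in 72.5% of tested genes. In both ferritins RPF lay under mRNA without overlap, as in 4.18% of tested genes. Their low ratio chose them, so this is no result. The split of the calls depends on the scaling: 73.8% of calls were higher with centring and 57.5% after quantile normalization.

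The mRNA levels of the members fell into the order Ftl1, Fth1, Hmox1, Ireb2, then Tfrc and Slc11a2, Aco1, Slc40a1 and Alas2. The replicates of Ftl1 and Fth1 did not overlap, nor did those of Fth1 and Hmox1 or of Hmox1 and Ireb2. Tfrc overlapped both Slc11a2 and Aco1, which did not overlap each other. In RPF the order of the means was Hmox1, Fth1, Aco1, Tfrc, Slc11a2, Ireb2, Ftl1, Slc40a1 and Alas2. The Fth1 range of 0 to 41.8 FPKM overlapped those of Hmox1 and Aco1, and Aco1, Tfrc, Slc11a2, Ireb2 and Ftl1 each overlapped the next in this order. Ftl1 and Slc40a1 did not overlap, but in Ribo-seq replicate 2 they stood for 0.504 and 0.999 footprints, under the floor of 3.

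Other mRNAs known for an IRE were measured in the same way. The hypoxia factor Epas1 (0.60), the actin-binding profilin Pfn2 (-1.19) and the phosphatase Cdc14a (-0.16) did not pass, with limma adjusted p of 0.403, 0.507 and 0.856. Cdc42bpa and Hao1 were under the filter. Cdc14a and Hao1 matched with 4 of 5 pairs in the 3′ UTR, and Epas1, Pfn2 and Cdc42bpa held no UTR match.

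Together with these 5 IRE mRNAs, which form a list of their own, the wider iron and heme machinery comprised 76 genes in 7 lists. Of the 76 genes, 58 were tested. Of the 58 tested genes, 5 passed as higher in RPF (8.62%, beside 9.13% of all tested genes) and 2 as lower. The median difference of the 58 was 0.26. In iron uptake and mitochondrial import 1 of 4 tested genes was higher, Slc39a14, a transporter of zinc and of iron not bound to transferrin. Its mRNA was at 4.56 and 4.89 FPKM, its RPF at 48.7 and 37.4 FPKM and its difference was 1.67 ± 0.27 (SE, limma adjusted p = 0.0395).

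In the list of ferritin turnover, iron chaperones and export, 2 of 6 tested genes were higher and 0 lower. Pcbp2, an RNA-binding protein that also delivers iron to its clients, had 16.9 and 22.1 FPKM of mRNA and 272 and 245 FPKM of RPF, a difference of 2.41 ± 0.27 (SE, limma adjusted p = 0.0240). Glrx3, a cytosolic glutaredoxin that carries iron-sulfur clusters, had 46.7 and 53.6 FPKM of mRNA and 810 and 593 FPKM of RPF, a difference of 2.504 ± 0.29 (SE, limma adjusted p = 0.0245). As 86.3% of Glrx3 windows had 2 places, and 18.6% of Pcbp2 windows had 2 to 4, the values of these genes could be shared with copies.

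Of 10 heme synthesis genes, all tested, 1 was higher and 0 lower. This was Cpox, coproporphyrinogen oxidase, with mRNA at 2.59 and 3.57 FPKM, RPF at 38.1 and 25.5 FPKM and a difference of 1.73 ± 0.33 (SE, limma adjusted p = 0.0494). Of 9 tested genes of heme handling and its regulators, 0 passed by limma, and the median was 0.83. An unadjusted p under 0.05 was reached by 5 of them, beside 22 of the 58 tested genes of all lists and 2986 of all 8327. Among the 5, Blvra lay below the median gene (-1.415), while Blvrb, Flvcr2, Pgrmc1 and Bach1 lay above it.

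Of 17 tested genes of mitochondrial iron-sulfur assembly, 0 were higher and 1 was lower, with a median of -0.61. Fdx2, the ferredoxin that feeds electrons to cluster assembly, had mRNA at 48.5 and 65.5 FPKM, RPF at 34.9 and 38.5 FPKM and a difference of -1.87 ± 0.28 (SE, limma adjusted p = 0.0348).

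Of 9 tested genes of cytosolic iron-sulfur assembly, 1 was higher and 1 lower, with a median of 0.09. Ciapin1, an electron carrier of the pathway, had mRNA at 10.7 and 13.1 FPKM, RPF at 113 and 130.4 FPKM and a difference of 1.99 ± 0.26 (SE, limma adjusted p = 0.0288). Ciao2a, a targeting factor that matures IRP1, had mRNA at 435 and 414 FPKM, RPF at 180 and 265 FPKM and a difference of -2.21 ± 0.31 (SE, limma adjusted p = 0.0302). It was the gene of these lists that passed with an mRNA level nearest to those of the ferritins. The genome places of Ciao2a and Fdx2 windows were not counted. None of the 7 genes that passed in these lists did so with the replicate number as a block, where 28 of all 8327 tested genes passed. Without either RNA-seq replicate their differences kept their signs, with a lone library left in that assay. With a pseudocount of 0.1, Cpox and Slc39a14 did not pass (limma adjusted p = 0.0663 and 0.0553), and without a filter Cpox did not (limma adjusted p = 0.0523). Without centring or filter, Ciao2a was at -0.95 and Fdx2 at -0.61, and neither passed.

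**Figure D5:**
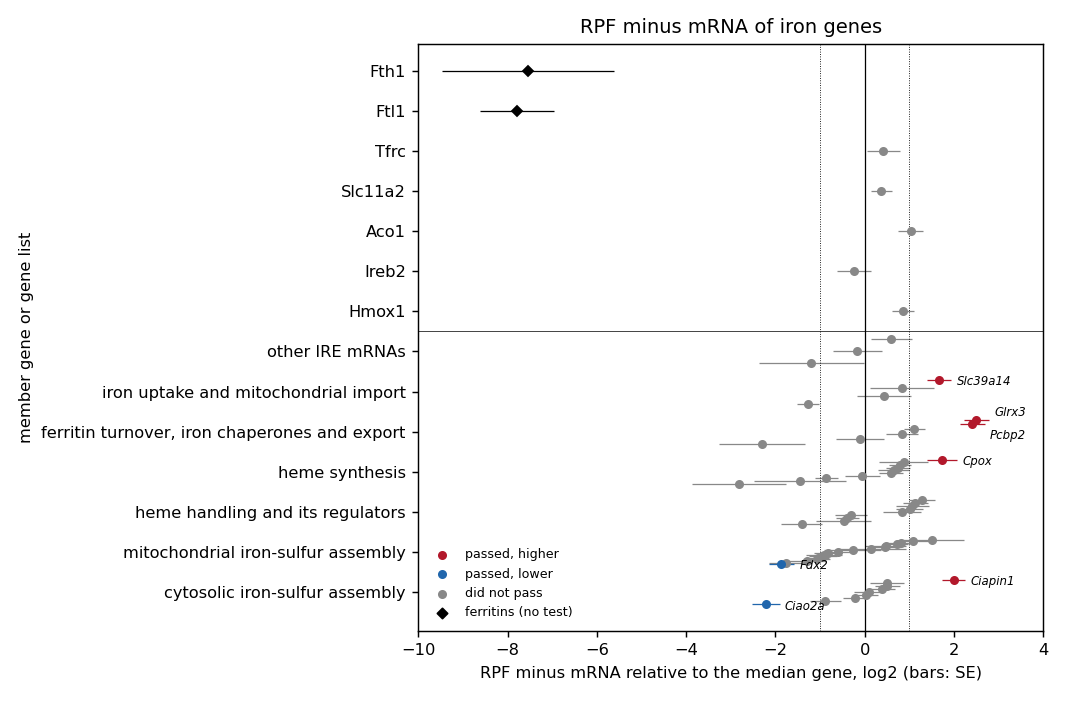
RPF minus mRNA on the log2 scale relative to the median tested gene, for the 7 tested members (1 row each) and for the 58 tested genes of the 7 lists (1 point per gene); bars are the SE of the limma fit, and dotted lines mark differences of -1 and 1. The ferritins, which were chosen by this difference and carry no test, lie at -7.55 and -7.79. The lowest value of the lists is -2.81.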

How the data were processed

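RNA-seq and Ribo-seq of blastocysts (2 libraries each) were taken from the FPKM values that the authors deposited per gene and library. According to the methods and the submitters' processing notes, reads were trimmed (Trim Galore 0.4.2 for RNA-seq, cutadapt 1.14 for Ribo-seq), rRNA reads were discarded from Ribo-seq with Bowtie2 2.2.2, and the rest were mapped to the mm9 transcriptome with STAR 2.5.3a with a limit of 20 places. Cufflinks 2.2.1 then gave FPKM over transcripts for RNA-seq and over coding sequences for Ribo-seq. The highest value was used where a symbol repeated.

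The members and gene lists were chosen with earlier results of these data known. RPF and mRNA were compared by limma 3.58.1 (R 4.3.3) on log2(FPKM + 1), two-sided, for 8327 genes with a mean of at least 1 FPKM in both assays, centred on their median difference and adjusted by Benjamini-Hochberg over all of them. Genes with a difference of 1 or more in size and an adjusted p under 0.05 passed. Named were all members, 5 other IRE mRNAs, up to 3 passing genes per list and direction, and the 3 genes nearest to each ferritin. Rps12 and the genes in the closing section were named after their values were seen.

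Fragments were inferred from FPKM steps with Cufflinks' default fragment lengths (mean 200, SD 80): 64.9% and 63.1% of tested low RNA-seq values and 83.0% and 83.4% of Ribo-seq values were within 0.1 of a whole number, where chance gives 20%. Since not nearly all were whole, no count test was run. Windows of 28 bases were placed on NCBIM37 by exact match with Python 3.11.15 and numba 0.67.0. On simulated data for the 8327 genes, limma recovered 37.5% of 200 genes changed by 3 on the log2 scale. There, 2.6% of calls were on unchanged genes. The simulation gave both assays the same spread, shuffled over genes. In the real data the replicates correlated at 0.946 in RNA-seq and 0.887 in Ribo-seq (Spearman). The simulated shares therefore do not measure false calls in the real data. Alternatives covered the pseudocount, filters, scaling, repeated symbols, a variance trend, the replicate block, each library left out and a looser hairpin rule. A further IRE mRNA and a blood marker planned for the lists are not reported here and were left out of the list counts.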

Additional observations from a re-analysis of the deposited data

How the results depend on the processing

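The Fth1 difference ran from -9.35 to -6.29 over 8 settings that kept all libraries and from -7.63 to -4.92 over 3 that left one out; without Ribo-seq replicate 2 its RPF was 0 and it fell under the filter. Ftl1 ran from -8.15 to -6.53 and, with a library left out, from -9.01 to -6.82. The number of genes passing was 1030; it was 543 with a pseudocount of 0.1, 1611 with a variance trend, 4178 without centring and 2084 without a filter, where the median shift is 0 and the values are in effect not centred. With one library left out it ran from 0 (without either RNA-seq replicate, with 1317 and 1260 genes at an unadjusted p under 0.05) to 2646 (without Ribo-seq replicate 1; 2602 without replicate 2), where the lone library is assumed to vary like the other assay. Without centring Tfrc (1.68), Slc11a2 (1.63), Aco1 (2.29) and Hmox1 (2.12) passed, and Ireb2 turned to 1.01; without a filter Slc11a2 (1.63), Aco1 (2.29) and Hmox1 (2.12) passed and Ireb2 was 1.01. With a library left out, Tfrc ran from -0.047 (without Ribo-seq replicate 1) to 0.64, Aco1 from 0.74 to 1.12 and Ireb2 from -0.66 to 0.060 (without RNA-seq replicate 1). None of the reversed Tfrc and Ireb2 values passed. Among other IRE mRNAs, Epas1 (0.60) passed at 1.86 without centring and ran from 0.04 to 1.17 with a library left out, Pfn2 turned to 0.066 without centring or filter, Pfn2 to 0.28 without Ribo-seq replicate 2 (lowest -1.27), and Cdc14a to 0.0070 with a pseudocount of 0.1, 1.10 without centring or filter, 0.37 with quantile normalization and 0.45 without Ribo-seq replicate 1 (lowest -1.02). Apart from what the construction of a setting shows, the cause was not tested.

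With the replicate number as a block, 28 genes passed. Deviations of same-numbered libraries correlated at 0.00994, and the labels do not say that numbers mark shared embryos, so the numbers were not taken as pairs. The Ribo-seq depth limits Slc40a1 and Alas2, whose footprints were 0 or 1. Their mean mRNA levels, 0.877 and 0.161 FPKM, were under the filter too. It also limits the ferritin values, which rest on 0 and 7.05 footprints for Fth1 and 3.36 and 0.504 for Ftl1.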

Other observations

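Ferritin-like genes outside the members, named after their values were seen, were also measured. Fthl17a, an X-linked ferritin heavy chain-like gene, had mRNA at 37.0 and 38.9 FPKM and RPF at 59.5 and 29.8 FPKM, so the assays overlapped. Its difference was -1.11 (95% interval -2.26 to 0.04, limma adjusted p = 0.148) and did not pass. The 6 other Fthl17 symbols ranged from 0.165 to 3.50 FPKM in mRNA and from 0.0572 to 7.23 FPKM in RPF; these near-identical copies can share reads, so their single values are uncertain. Ftmt, the mitochondrial ferritin, was listed at 0 in every library.

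Beyond the ferritins, 13 tested genes held a 5′ UTR hairpin match with all 5 pairs. Their median difference was -0.40, from -2.04 to 1.49, and 0 were higher and 1 lower by limma, beside 3.24% of all tested genes that were lower. The lower gene was Vti1b, a vesicle SNARE, at -2.04 ± 0.25 (SE, limma adjusted p = 0.0265). Of 64 tested genes with a 3′ UTR match, 5 were higher and 0 lower, beside 9.13% and 3.24% of all tested genes, with a median of 0.29. A match in letters is not a measured binding site.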
